A study of Drosophila melanogaster with 24 samples.

Results

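Long non-coding RNA genes give transcripts that are processed like messenger RNAs but hold no long open reading frame. Some are the RNA body of a nuclear structure, some host small nucleolar RNAs, and others overlap or lie beside a protein-coding gene. In Drosophila the best known is Hsromega, a heat-inducible nuclear RNA around which the omega speckles form and which holds hnRNP proteins. The genes described here are all annotated genes with the symbol prefix lncRNA:, other than the dosage compensation RNAs roX1 and roX2, whose mean level reached 5 TPM in at least 1 of 3 midgut groups. TPM is by definition a length-corrected share of the sequenced RNA, but in 13 of the 24 libraries its deposited sum is above 1000000. The rule kept 89 of 1920 lncRNA symbols, among 17137 annotated symbols. Of the 89, 54 reached 5 TPM in all 3 midgut groups, 17 in 2 and 18 in 1.

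RNA was sequenced in 24 fly libraries that fall into 7 groups. The 3 midgut groups, of 4 libraries each, are an RNA interference knockdown of Adar at 10 days, lacZ flies at 30 days and lacZ flies at 10 days. All carry esgts, a driver switched by temperature that works in the gut's stem cells and enteroblasts, and the labels call the cells sorted stem cells. The other 4 groups, of 3 libraries each, carry the tissue label whole organism: E374A overexpression (a mutant form of the RNA-editing enzyme ADAR), its control, a knockdown of Zn72D, a zinc-finger RNA-binding protein, and its control. No age or driver is labelled for those 12. The extract protocol describes sorted midgut stem cells for every library. The labels do not say whether replicates came from separate animals, so the p-values speak of the spread among these libraries, which may be technical.

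Some libraries stand apart and bear on the results. Tables of assembled loci were deposited for the midgut (12 libraries) and for E374A control 3, and tables of annotated genes for the other 11, and the 2 formats were normalized separately. Both formats meet in 1 fit only for E374A, through control 3, and that comparison is therefore also given without it. E374A control 3 had a mean rank correlation of 0.956 with the lacZ 10 day libraries and of 0.517 with the other libraries of its label, over 8998 genes. Adar was at 17.2, 14.6 and 15.8 TPM in the libraries labelled E374A overexpression, against 879, 801 and 31.5 TPM in those labelled E374A control, which goes against the label. Between a library labelled E374A overexpression and the Zn72d control of the same number, the read coverage of 82.5% to 82.6% of the genes above 0 in both agreed within 0.1%, so these 2 groups are not independent samples. Adar itself had 16.1, 11.2, 23.5 and 7.78 TPM in the Adar knockdown, against 29.2, 37.5, 45.7 and 38.6 TPM in lacZ 10 day, with no overlap. Aligned bases were estimated at 3.39 to 7.62 gigabases per library.

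The cell type labels were set beside marker genes. The 6 stem cell and enteroblast markers summed to 514 to 848 TPM in the Adar knockdown, 652 to 941 TPM in lacZ 30 day and 1151 to 1868 TPM in lacZ 10 day. They summed to 45.4 to 60.1 TPM in the Zn72d knockdown and 49.8 to 53.5 TPM in the Zn72d control. The 6 enterocyte markers summed to 403 to 1778 TPM in the Adar knockdown, 452 to 1034 TPM in lacZ 30 day and 151 to 453 TPM in lacZ 10 day, but to 83920 to 96660 TPM in the Zn72d knockdown and 90080 to 109700 TPM in the Zn72d control. The stem cell list had 0 markers called higher and 2 lower with age, and 0 higher and 3 lower in the Adar knockdown. Of the enterocyte list, 2 were called higher and 0 lower in each of these. Of all 8745 genes tested, 4.23% were called higher and 15.4% lower with age. The shares were 3.74% and 16.0% in the Adar knockdown. Visceral muscle markers (4) summed to at most 24.9 TPM in any midgut library, haemocyte markers (3) to at most 2.73 TPM, fat body and ovary markers (4) to at most 148 TPM and neuron markers (2) to at most 97.4 TPM, with no call. Library 1 of lacZ 10 day had 2094 TPM of the 8 enteroendocrine markers, the highest of its group, where the lowest had 180 TPM. The range was 324 to 595 TPM in the Adar knockdown and 524 to 1437 TPM in lacZ 30 day, and 2 of these markers were called higher and 0 lower with age. Library 1 of lacZ 10 day also had 10.4 TPM of roX1, a male-specific RNA, and library 1 of lacZ 30 day had 10.5 TPM, while the other 10 midgut libraries had at most 0.445 TPM. No marker of these lists was at 0 in all libraries of a midgut group. Fewer cells of a type and less RNA per cell cannot be told apart in these bulk samples, and the part of the markers in the lncRNA results was not tested.

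The 89 genes made up a small share of the RNA. They summed to 4393 to 5324 TPM in the Adar knockdown, 4125 to 6480 TPM in lacZ 30 day and 4870 to 5651 TPM in lacZ 10 day, which is 0.437% to 0.692% of the annotated total. In the 11 annotated tables they summed to 977 to 1651 TPM, or 0.0978% to 0.165%. Between 80 and 89 of them lay above 1 TPM in each midgut library, and between 41 and 49 in each annotated table. The rule chose the genes on the midgut levels, so this contrast is a description. The level was concentrated: the median of the 89 genes over the midgut libraries was 11.8 TPM, and the highest gene averaged 1064 TPM.

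**Figure D1:**
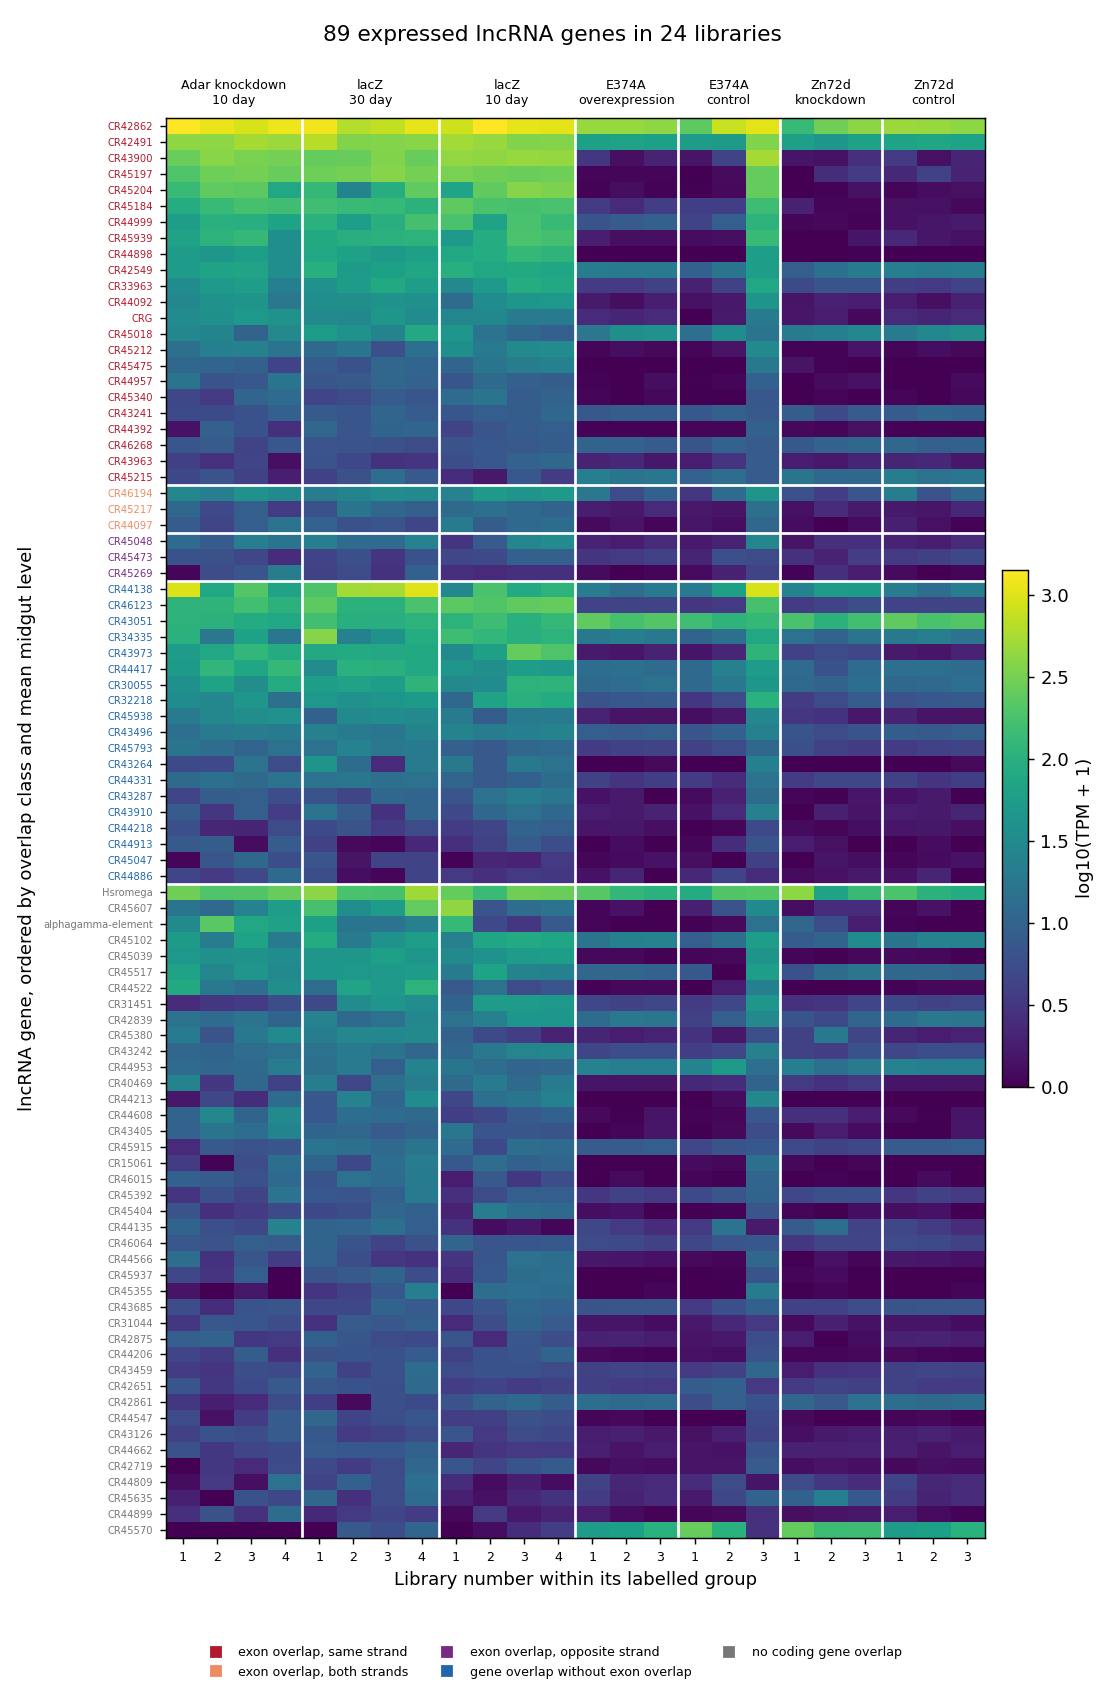
Level of each of the 89 lncRNA genes (rows) in each of the 24 libraries (columns, grouped by label), as log10(TPM + 1), with rows ordered by overlap with coding genes and by midgut level, and gene names coloured by overlap class. The library labelled E374A control 3 looks like the 12 midgut libraries, and CR45570, in the bottom row, is high in the 11 annotated tables.

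Of the 89 genes, 48 (53.9%) overlap a protein-coding gene, and reads in shared sequence can be assigned to either. By an annotation of the assembly that dm6 names, 41 overlapped no coding gene. A further 19 overlapped a coding gene without sharing exon sequence, and 23 shared exon sequence with a coding gene on the same strand. Another 3 shared exon sequence with coding genes on both strands, and 3 only with one on the opposite strand. Among the 41 free of overlap, the nearest coding gene lay a median of 479 bases away, and 27 lay within 1000 bases of one. The genes were spread over 3R (30 genes), X (22), 3L (15), 2L (13) and 2R (9). The strand setting of the quantification is not given in the sources used here, so levels of the 48 overlapping genes are uncertain.

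For 12 genes, at least 50% of the exon sequence lay inside coding exons of the same strand. Their median was 85.5 TPM over the midgut libraries, but 0.502 TPM in the Zn72d control. Low levels in that control were not particular to them. The medians were 11.8 and 0.900 TPM over all 89 genes, and 7.18 and 0.843 TPM over the 41 without coding overlap. Under 1 TPM in the Zn72d control were 8 of the 12, 47 of the 89 and 23 of the 41. CR45197 (FBgn0266707, dm6 chromosome X, 2675188 to 2676657) lies wholly within exons of sgg, which encodes the GSK-3 kinase of Wnt signalling. CR45197 averaged 299 ± 24.2 TPM in lacZ 10 day (n = 4), beside 200 ± 24.8 TPM of sgg. In the Zn72d control it averaged 1.80 ± 1.12 TPM (n = 3), beside 53.1 ± 2.19 TPM of sgg. CR45204 (FBgn0266731, X, 10794338 to 10796292) lies wholly within exons of Imp, an RNA-binding protein gene. It averaged 258 ± 139 TPM in lacZ 10 day and 0.259 TPM in the Zn72d control, where Imp had 241 ± 94.4 and 13.4 ± 0.402 TPM. CR44898, with 99.8% of its exon sequence in robo2, a guidance receptor gene, averaged 99.4 ± 22.3 TPM in lacZ 10 day and 0.0181 TPM in the Zn72d control, where robo2 had 98.5 ± 39.1 and 8.01 ± 0.267 TPM. So in the assembled tables the rows of CR45197, CR45204 and CR44898 were about as high as the coding gene that contains each. In the annotated tables these 3 were near 0. E374A control 3, an assembled table with a whole organism label, had 256, 257 and 56.3 TPM of CR45197, CR45204 and CR44898. Table format and tissue cannot be told apart for these genes. An exception among the 12 was CR46268, in exons of CG17490, with 5.70 TPM over the midgut libraries and 8.86 TPM in the Zn72d control.

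The pairs of tables that agree in coverage differed in a few lncRNA genes. Across the 3 pairs of a library labelled E374A overexpression and the Zn72d control with the same number, between 65.4% and 68.8% of the lncRNA genes above 0 in both had coverage within 0.1%. CR44999, whose exons lie 91.8% in exons of the growth regulator Myc, had 5.5, 7.13 and 8.26 TPM in the tables labelled E374A overexpression, against 0.438, 0.550 and 0.674 TPM in the Zn72d control tables. CR45184, with 94.7% of its exon sequence in the splicing factor gene Sf3b3, had 2.45, 1.35 and 2.79 TPM in the E374A overexpression tables and 0.399, 0.368 and 0.181 TPM in the Zn72d control. CR45197 went the other way, with 0.0991, 0.152 and 0.113 TPM in the E374A overexpression tables and 1.24, 3.10 and 1.07 TPM in the Zn72d control. These were the only lncRNA genes that differed by more than 1 on the log2(TPM + 1) scale in any pair, and all of them share exon sequence with a coding gene on the same strand.

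**Figure D2:**
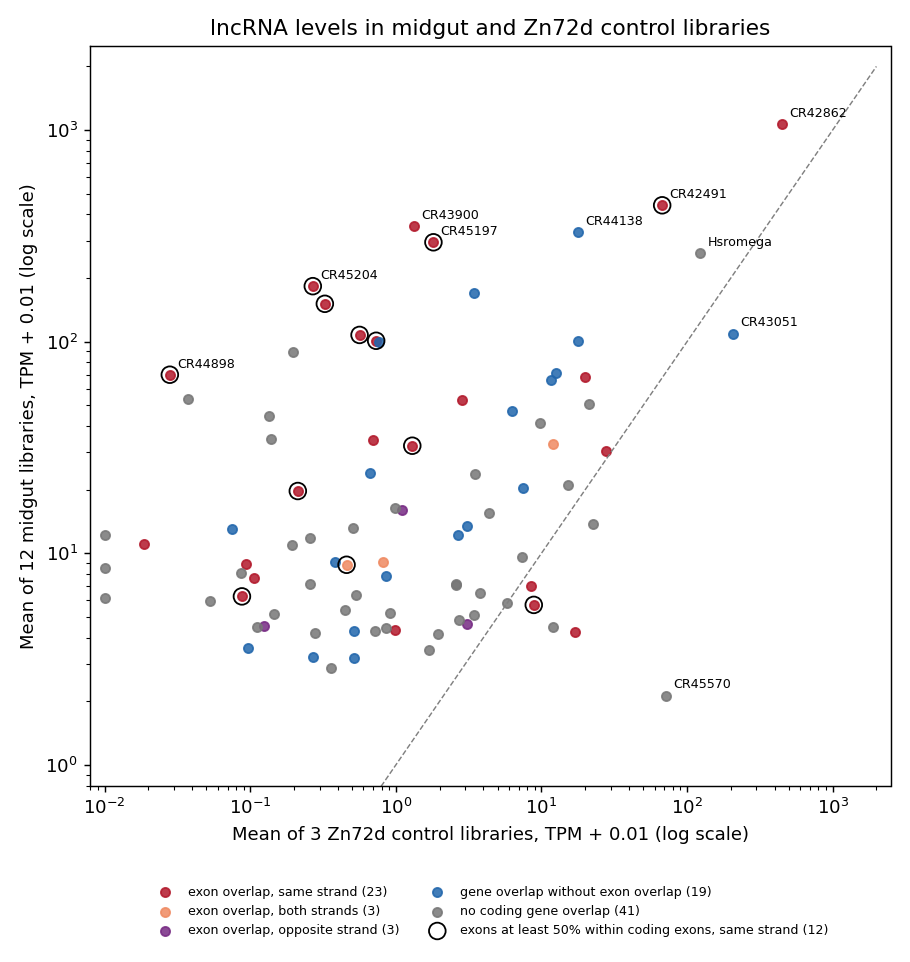
Mean level of the 89 lncRNA genes in the 12 midgut libraries (vertical axis) against the 3 Zn72d control libraries (horizontal axis), both as TPM + 0.01 on log scales, with 1 point per gene coloured by its overlap with coding genes. Ringed genes have at least 50% of their exon sequence within coding exons of the same strand and lie far above the dashed line of equal level, apart from CR46268. The 2 axes come from different table formats.

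Among the abundant genes, CR42862 was the highest of the 89 in all 12 midgut libraries. CR42862 (FBgn0262109, 3L, 224106 to 230964) shares 4.48% of its exon sequence with CG33229. It had 1421, 1164, 911 and 1175 TPM in the Adar knockdown, 1232, 637, 735 and 1096 TPM in lacZ 30 day, and 841, 1400, 1087 and 1065 TPM in lacZ 10 day. The 3 groups overlapped. It was also the highest of the 89 in the Zn72d control, at 450 ± 29.6 TPM (n = 3), with 275 ± 133 TPM in the Zn72d knockdown. CR43900 (FBgn0264501, 2R, 12259409 to 12260813), 27.0% of whose exon sequence lies in the calmodulin gene Cam, averaged 445 ± 15.8 TPM in lacZ 10 day and 1.32 ± 1.04 TPM in the Zn72d control. E374A control 3 had 528 TPM of it, and the 2 other libraries of that label 0.475 and 3.37 TPM. CR46123 (FBgn0267798, 3R, 1366234 to 1366601), inside Myo81F on the other strand without shared exon sequence, averaged 230 ± 25.8 TPM in lacZ 10 day and 3.41 ± 0.0984 TPM in the Zn72d control. The mean of Myo81F was 0.00129 TPM in lacZ 10 day and 0.00586 TPM in the Zn72d control.

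CR45570 (FBgn0267130, 3R, 30404429 to 30404989) ran the other way, and it lies 13778 bases from its nearest coding gene, CG2217. It had at most 0.00992 TPM in the 4 Adar knockdown libraries, between 0.00072 and 9.61 TPM in lacZ 30 day, and between 0.0106 and 2.74 TPM in lacZ 10 day. In the annotated tables it had 53.1 to 259 TPM, and by its mean of 122 TPM over them only CR42862, CR43051 and Hsromega were higher. E374A control 3 held 1.83 TPM. In all, 7 of the 89 were higher in the Zn72d control than over the midgut libraries, namely CR43051, CR44953, CR42861, CR43241, CR45215, CR46268 and CR45570.

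A total of 3 genes host small nucleolar RNAs, which guide chemical modification of ribosomal RNA and are mostly cut from introns of host transcripts. CR42491 (FBgn0259993, X, 762615 to 763810) hosts snoRNA:Psi18S-531 and shares 50.5% of its exon sequence with RpL22, a ribosomal protein gene. It averaged 457 ± 56.6 TPM in the Adar knockdown, 440 ± 136 TPM in lacZ 30 day and 428 ± 79.2 TPM in lacZ 10 day (n = 4 each), with adjusted p = 0.717 and 0.968 by limma for the knockdown and for age. CR45184 hosts 5 small nucleolar RNAs within Sf3b3 and averaged 135 ± 34.0, 129 ± 19.4 and 189 ± 28.9 TPM in the same groups. CR43051 (FBgn0262353, 2L, 12507939 to 12508504) hosts 1 and lies within bun, a TSC22 family transcription factor gene, on the other strand. The annotated tables hold it under the newer name CG43051, and the annotation lists it as coding, as it does CR43405 (CG43405), while CR42875 is listed as a pseudogene. It had 76.0 to 108 TPM in the Adar knockdown, 93.9 to 155 TPM in lacZ 30 day and 100 to 148 TPM in lacZ 10 day, and 105 to 240 TPM in the annotated tables. The 11 core and assembly proteins of small nucleolar ribonucleoproteins in the tables gave 0 called higher and 6 lower with age, and 0 higher and 3 lower in the Adar knockdown, where 15.4% and 16.0% of 8745 genes were called lower. Nopp140, a nucleolar chaperone of these particles, averaged 95.3 ± 16.4 TPM in lacZ 30 day and 222 ± 25.1 TPM in lacZ 10 day, with a log2 fold change of -1.22 (adjusted p = 0.00581 by limma). The list's median was -1.09 with age and -0.73 in the knockdown, beside -0.32 and -0.39 for all genes. With median-ratio scaling, in which each library is divided by its median ratio to a common profile, 2 and 1 lower calls were made, where 3.73% and 1.93% of all genes were called lower.

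The 2 heat-responsive genes varied widely within groups. Hsromega (FBgn0001234, 3R, 21296127 to 21317836) had 293, 191, 195 and 262 TPM in the Adar knockdown, 403, 173, 170 and 502 TPM in lacZ 30 day, and 258, 141, 290 and 280 TPM in lacZ 10 day. In lacZ 30 day, libraries 1 and 4 were far above the other two, and the 3 groups overlapped. Its log2 fold change was 0.25 ± 0.35 (SE) with age and -0.01 ± 0.35 in the knockdown, and neither passed limma's test (adjusted p = 0.622 and 0.981). With median-ratio scaling the knockdown value turned positive, at 0.36. In the second set, Hsromega had 409, 66.6 and 134 TPM in the Zn72d knockdown, against 180, 104 and 86.9 TPM in the Zn72d control, again with overlap (adjusted p = 0.759).

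The alphagamma-element (CR32865, FBgn0052865, 3R, 12475336 to 12478267) lies 7560 bases from Hsp70Ba in the heat shock gene cluster. It had 31.2, 222, 77.1 and 62.7 TPM in the Adar knockdown, 61, 15.6, 15 and 22.9 TPM in lacZ 30 day, and 127, 3.93, 2.13 and 6.63 TPM in lacZ 10 day. Library 1 of lacZ 10 day lay among the knockdown libraries, and the other 3 lay below every library of both other groups. The log2 fold change was 2.80 ± 1.0 (SE) in the knockdown and 1.18 ± 1.0 with age, and limma called neither (adjusted p = 0.0631 and 0.403). Without library 1 of lacZ 10 day both were called: 3.98 in the knockdown (adjusted p = 0.00324) and 2.35 with age (adjusted p = 0.0246). That library also had 17720 TPM of the 17 heat shock genes in the tables, where the other 3 had 1541 to 4007 TPM. The same sum was 5918 to 29970 TPM in the Adar knockdown and 6971 to 17870 TPM in lacZ 30 day. In the Zn72d knockdown the alphagamma-element had 10.1, 4.68 and 0.831 TPM, against 0.0826, 0 and 0 TPM in the Zn72d control, and the heat shock genes summed to 2558 to 10790 TPM, against 229 to 1566 TPM. The adjusted p there was 0.124 by limma, and limma called it without library 3 of the knockdown (adjusted p = 0.00324), and also with a pseudocount of 0.1 or with the replicate number as a block. The gene averaged 0.0275 TPM in the Zn72d control and passed the filter of 1 TPM only through the knockdown. Nothing is therefore read from these tests. The part of the heat shock genes' level in other lncRNA results was not tested.

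Of the 17 heat shock genes, limma called none higher or lower with age, and none of the 16 tested in the Zn72d knockdown. In the Adar knockdown 1 was called higher and 0 lower: Hsp23, a small heat shock protein, averaged 2838 ± 3115 TPM in the knockdown and 388 ± 619 TPM in lacZ 10 day (log2 fold change 3.65, adjusted p = 0.0252 by limma). The share of all genes called higher was 4.23% with age and 3.74% in the Adar knockdown. With median-ratio scaling 1 was called higher with age and 2 in the Adar knockdown, where 5.15% and 4.49% of all genes were called higher. Their median log2 fold change was 1.30 with age, 1.42 in the Adar knockdown and 4.11 in the Zn72d knockdown, beside -0.32, -0.39 and -0.17 for all genes. Of the 12 omega speckle and hnRNP proteins, the partners of Hsromega RNA, 0 were called higher and 6 lower with age, and 0 higher and 4 lower in the Adar knockdown, where 15.4% and 16.0% of all genes were called lower. Hrb87F, an hnRNP bound by Hsromega RNA, averaged 553 ± 106 TPM in the knockdown, 475 ± 50.4 TPM in lacZ 30 day and 853 ± 146 TPM in lacZ 10 day. With median-ratio scaling 1 lower call was made in each comparison, where 3.73% and 1.93% of all genes were called lower. In the Zn72d knockdown none of the 12, and none of the 11 small nucleolar particle proteins, was called by limma, and the E374A comparison had no call in any of the 3 lists.

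**Figure D3:**
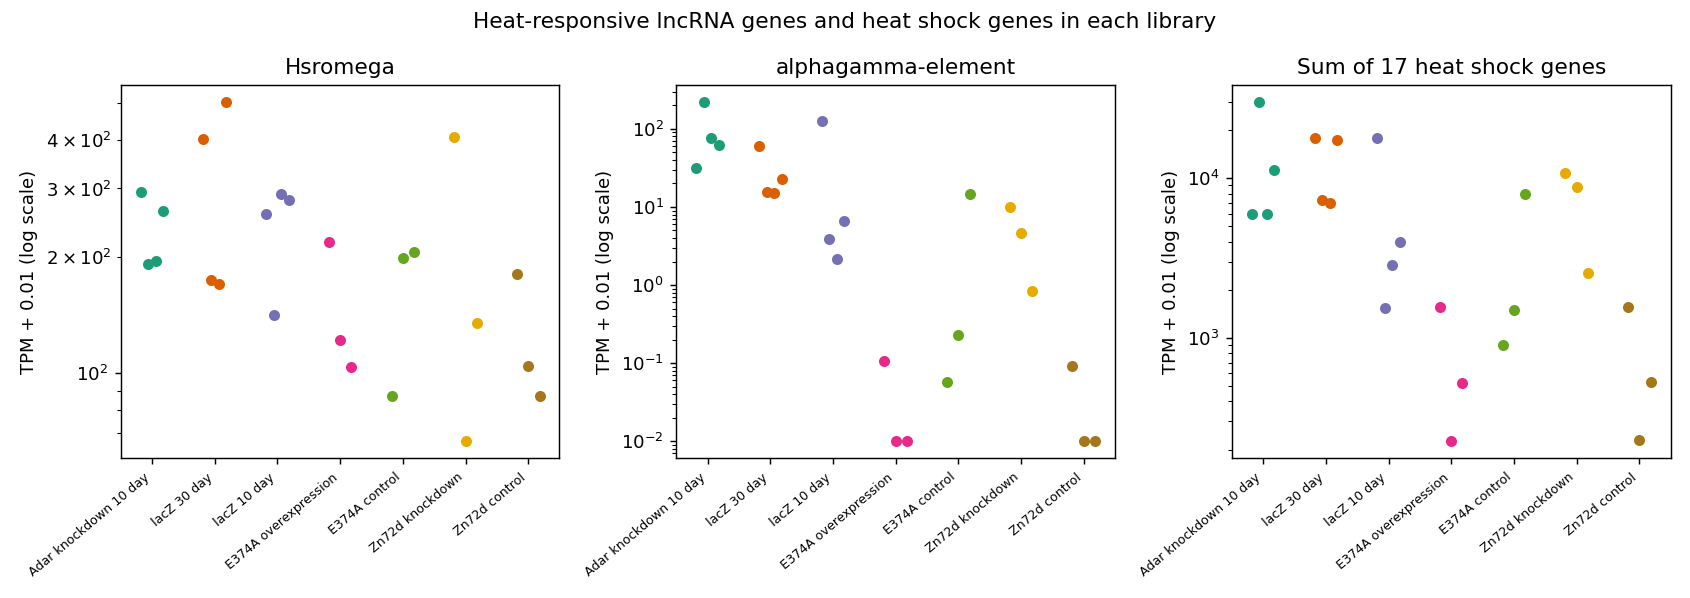
Levels of Hsromega, of the alphagamma-element and of the summed 17 heat shock genes in each library, as TPM + 0.01 on log scales, with 1 point per library in the 7 labelled groups. Library 1 of lacZ 10 day stands far above its group for the alphagamma-element, at 127 TPM, and for the heat shock genes, at 17720 TPM, but not for Hsromega.

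For ageing, lacZ flies at 30 days were set against lacZ flies at 10 days. The rule used both groups, so a test was given only for the 72 genes that reached 5 TPM in both of them or in neither. CR44522, CR44138 and CR45793 rose with age, and CR45212, CR43900 and CR44898 fell. These are 3 and 3 of 72, at an adjusted p under 0.05 by limma, where 4.23% of 8745 genes were called higher and 15.4% lower, and nothing is read from that count. The deposited values of all genes were lower at 30 days by a median of 0.32 (log2). After median-ratio scaling, which takes this shift to -0.05, 5 of the 72 were called higher and 1 lower, where 5.15% of all genes were called higher and 3.73% lower. That is 450 genes higher and 326 lower, in place of 370 and 1346. The sign of 19 of the 72 turned under that scaling, none of them a called gene.

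CR44522 (FBgn0265715, 3L, 6263008 to 6263399) lies 314 bases from Ldh, the lactate dehydrogenase gene, on the same strand. It had 12.3, 68.0, 47.9 and 108 TPM at 30 days, against 6.65, 13.9, 4.31 and 5.86 TPM at 10 days. Library 1 at 30 days lay within the range of the 10-day libraries. The log2 fold change was 2.55 ± 0.63 (SE, adjusted p = 0.0179), and Ldh moved with it, at 1617 ± 820 TPM against 445 ± 188 TPM (1.77 ± 0.43, adjusted p = 0.0168). Without library 3 or 4 of lacZ 10 day the adjusted p of CR44522 was 0.0545 or 0.0505.

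CR44138 (FBgn0264987, 3R, 13376903 to 13377395) lies inside CG9813 on the other strand without shared exon sequence. It had 185, 522, 542 and 992 TPM at 30 days, against 28.6, 177, 84.3 and 109 TPM at 10 days. The groups did not overlap, as was so for 28.7% of all genes tested, but library 1 of 30 days and library 2 of 10 days were 185 and 177 TPM. The log2 fold change of 2.51 ± 0.82 was barely called (adjusted p = 0.0494), and leaving out libraries 1, 3 or 4 of lacZ 10 day or 2, 3 or 4 of lacZ 30 day gave adjusted p = 0.0917 to 0.115. CG9813 averaged 11.3 ± 4.27 TPM at 30 days and 2.87 ± 0.747 TPM at 10 days (1.63 ± 0.34, adjusted p = 0.00897). CR45793 (FBgn0267443, 3R, 5263757 to 5264511), inside Hph, the prolyl hydroxylase gene of the hypoxia response, on the other strand, had 14.6, 23.7, 17.5 and 18.5 TPM at 30 days, against 8.22, 6.56, 10.1 and 11.6 TPM at 10 days. Its log2 fold change was 0.96 ± 0.24 (adjusted p = 0.0175, and 0.0568 without library 2 of lacZ 30 day). Hph averaged 50.6 ± 15.1 TPM at 30 days and 75.9 ± 23.6 TPM at 10 days, with no call (adjusted p = 0.176).

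The genes that fell with age all share exon sequence with a coding gene on their own strand. CR45212 (FBgn0266739, 3R, 16049031 to 16049421), with 60.7% of its exon sequence in IKKbeta, an immune kinase gene, had 10.8, 16.0, 4.96 and 13.2 TPM at 30 days, against 35.7, 18.6, 30.4 and 32.5 TPM at 10 days. Its log2 fold change was -1.37 ± 0.32 (adjusted p = 0.0146), called with each of the 8 libraries left out, and its scaled value stayed called (-1.08, adjusted p = 0.0406). IKKbeta averaged 9.63 ± 1.94 TPM at 30 days and 18.3 ± 4.37 TPM at 10 days (-0.86 ± 0.24, adjusted p = 0.0293). CR43900 had 254, 264, 354 and 266 TPM at 30 days, against 439, 426, 462 and 453 TPM at 10 days, with no overlap. The log2 fold change was -0.66 ± 0.16 (adjusted p = 0.018), and Cam averaged 1967 ± 388 TPM at 30 days and 2666 ± 94.9 TPM at 10 days (-0.46 ± 0.13, adjusted p = 0.0318). CR44898 had 75.4, 62.3, 50.4 and 60.8 TPM at 30 days, against 73.9, 88.5, 123 and 112 TPM at 10 days, with 1 library overlapping (-0.65 ± 0.22, adjusted p = 0.0488). With median-ratio scaling the calls of CR43900 and CR44898 ended, at -0.36 each (adjusted p = 0.2 and 0.247). The call of CR43900 also ended without library 3 of lacZ 10 day or library 2 of lacZ 30 day (adjusted p = 0.051 and 0.0508). That of CR44898 ended without libraries 2, 3 or 4 of either group (adjusted p = 0.0533 to 0.136).

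The other 17 genes passed the rule through only one of the 2 ages and get no test. Their means ran between 3.01 and 26.5 TPM at 30 days and between 0.683 and 8.78 TPM at 10 days. In 6 of the 17, named here after their values were seen, the ages did not overlap, as was so for 9 of the 72 tested genes (12.5%) and for 28.7% of all genes. Nothing is read from the 6, since the rule used these levels. CR45380, 410 bases from Strip, had 20.8 to 29.1 TPM at 30 days and 1.04 to 8.61 TPM at 10 days. CR44135, 396 bases from CG18547, had 7.68 to 13.7 TPM at 30 days and 0.0897 to 1.80 TPM at 10 days, and CG18547 averaged 37.0 ± 14 and 10.5 ± 5.84 TPM at these ages. CR44809 had 3.40 to 13.3 TPM at 30 days and 0.271 to 1.59 TPM at 10 days. These 3 were higher at 30 days, as were CR44662 (6.32 to 8.53 TPM, against 1.18 to 2.40 TPM) and CR42651 (4.80 to 11.2 TPM, against 2.67 to 3.26 TPM). CR42861 was lower, at 0.196 to 4.90 TPM at 30 days, against 5.49 to 10.8 TPM at 10 days. CR46015 overlapped between ages, with 5.63 to 18.8 TPM at 30 days and 0.778 to 6.67 TPM at 10 days. It lies 872 bases from the glutathione transferase gene GstD2, which averaged 7458 ± 3092 TPM at 30 days and 1535 ± 1250 TPM at 10 days.

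A total of 9 genes without a call with age were called when 1 of the 8 libraries was left out. Among them, CR45607 (FBgn0267167, X, 18244892 to 18245180), 1608 bases from upd2, a cytokine gene of JAK-STAT signalling, had 171, 33.7, 54.9 and 251 TPM at 30 days, against 424, 5.80, 12.3 and 14.9 TPM at 10 days. Library 1 of lacZ 10 day held the highest value of all, and without it limma called the gene higher with age, at a log2 fold change of 3.09 (adjusted p = 0.0169). The gene was named after its values were seen. Without library 1 of both ages, a setting chosen after seeing the data, 5 of the 72 genes were called higher and 4 lower. The shares of all genes called with these libraries left out are not given here. Nothing is therefore read from these counts.

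**Figure D4:**
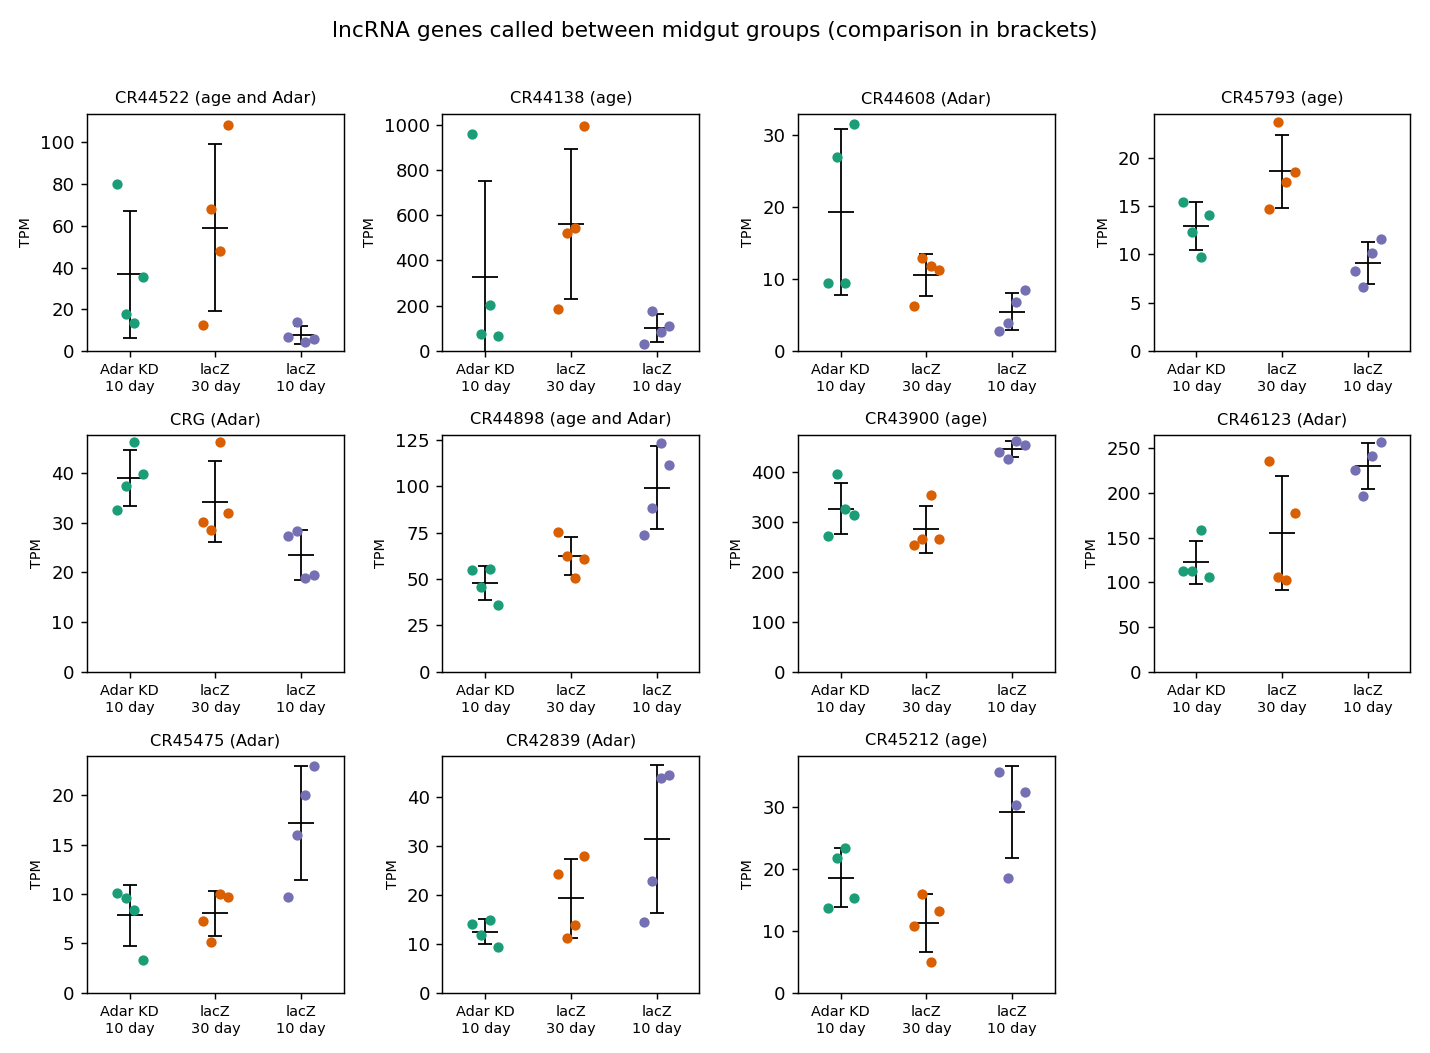
TPM of the 11 lncRNA genes called with age, in the Adar knockdown or in both, with 1 point per library and the mean and SD of 4 libraries as bars, cut at 0, in the Adar knockdown at 10 days, lacZ at 30 days and lacZ at 10 days. CR43900, CR45212 and CR44898 are lower at 30 than at 10 days, and CR44522 is spread widely in both groups set against lacZ 10 day.

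For the Adar comparison, the knockdown at 10 days was set against lacZ at 10 days, so this comparison shares its lacZ 10 day libraries with the one on age. A test was given for the 63 genes at 5 TPM in both groups or in neither. CRG, CR44608 and CR44522 rose, and CR44898, CR42839, CR45475 and CR46123 fell. These are 3 higher and 4 lower of 63, where 3.74% of 8745 genes were called higher and 16.0% lower, and nothing is read from that count. The values of all genes were lower in the knockdown by a median of 0.39 (log2). After median-ratio scaling, which leaves -0.05, 3 of the 63 were called higher and 0 lower (limma; 15 had an unadjusted p under 0.05), where 4.49% of all genes were called higher and 1.93% lower. That is 392 genes higher and 169 lower, in place of 327 and 1395. The sign of 11 of the 63 turned under that scaling, none of them a called gene.

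CRG (FBgn0266181, 3R, 21783540 to 21786208), the CASK regulatory gene, is known for promoting transcription of CASK, a synaptic scaffold gene whose exons contain it, and for its part in locomotion. It had 32.6, 37.5, 46.3 and 39.8 TPM in the knockdown, against 27.3, 28.3, 18.9 and 19.5 TPM in lacZ 10 day. The groups did not overlap, as was so for 22.2% of all genes tested. The log2 fold change was 0.72 ± 0.22 (adjusted p = 0.0343), and the scaled value was 1.08 (adjusted p = 0.0177). CASK averaged 77.0 ± 17.5 TPM in the knockdown and 95 ± 23.1 TPM in lacZ 10 day, with no call (adjusted p = 0.347). The call of CRG ended without libraries 2, 3 or 4 of the knockdown or 3 or 4 of lacZ 10 day (adjusted p = 0.0625 to 0.106). At 30 days CRG averaged 34.2 ± 8.14 TPM, and limma called it higher with age only after median-ratio scaling (0.81, adjusted p = 0.0449).

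CR44608 (FBgn0265819, 2L, 4228921 to 4229458), 360 bases from RpL40, had 9.38, 26.9, 9.42 and 31.5 TPM in the knockdown, against 2.81, 3.83, 6.80 and 8.41 TPM in lacZ 10 day. Its log2 fold change was 1.54 ± 0.42 (adjusted p = 0.0261), and RpL40, which encodes a ubiquitin-ribosomal fusion protein, averaged 4347 ± 294 and 4148 ± 359 TPM in the same groups. Without libraries 2 or 4 of the knockdown or 3 of lacZ 10 day the adjusted p was 0.0561 to 0.0705. CR44522 had 80.3, 17.8, 13.4 and 35.7 TPM in the knockdown, with library 3 inside the range of lacZ 10 day given above. It was barely called (1.90 ± 0.63, adjusted p = 0.0499), and the call ended after median-ratio scaling (adjusted p = 0.0614). It also ended without libraries 1, 2 or 4 of the knockdown or 1, 3 or 4 of lacZ 10 day (adjusted p = 0.0627 to 0.133). Ldh was not called in the knockdown (0.50 ± 0.43, adjusted p = 0.394).

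CR44898 (FBgn0266203, 2L, 1380083 to 1381326) was the only one of the 7 called with each of the 8 libraries left out, with 54.8, 45.8, 55.5 and 35.9 TPM in the knockdown, against 73.9, 88.5, 123 and 112 TPM in lacZ 10 day. Its log2 fold change was -1.03 ± 0.22 (adjusted p = 0.0112). After median-ratio scaling it was -0.66 (adjusted p = 0.0538). The robo2 gene around it fell too, to 41.1 ± 14.3 TPM in the knockdown, against 98.5 ± 39.1 TPM in lacZ 10 day (-1.21 ± 0.31, adjusted p = 0.0206). CR44898 and robo2 share sequence, so their reads cannot be told apart.

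CR42839 (FBgn0262028, 3R, 16004321 to 16008073) lies 236 bases from srp, a GATA factor gene, on the other strand. It had 14.1, 11.8, 14.9 and 9.31 TPM in the knockdown, against 14.4, 22.8, 43.7 and 44.5 TPM in lacZ 10 day, with overlap at library 1 of lacZ 10 day (-1.14 ± 0.37, adjusted p = 0.0444). The srp gene itself averaged 10.3 ± 2.40 TPM in the knockdown and 20.5 ± 4.98 TPM in lacZ 10 day (-0.93 ± 0.26, adjusted p = 0.0297). CR46123 had 113, 113, 159 and 105 TPM in the knockdown, against 225, 196, 241 and 256 TPM in lacZ 10 day (-0.92 ± 0.26, adjusted p = 0.0276). CR45475, which shares 28.9% of its exon sequence with Hinfp, had 10.2, 9.58, 8.37 and 3.37 TPM in the knockdown, against 9.73, 15.9, 20.1 and 23.0 TPM in lacZ 10 day (-1.06 ± 0.35, adjusted p = 0.0473). All 3 calls ended after median-ratio scaling (adjusted p = 0.163 to 0.203). Each also ended without libraries 2 or 4 of the knockdown or 3 or 4 of lacZ 10 day, CR42839 and CR46123 without library 1 of the knockdown, and CR45475 without library 3 of the knockdown or 2 of lacZ 10 day (adjusted p = 0.0524 to 0.134).

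The other 26 genes passed the rule through only one of these groups and get no test. In 4 of them, named after their values were seen, the groups did not overlap: CR31451, CR42861, CR43963 and CR44135. Groups did not overlap for 8 of the 63 tested genes (12.7%) and for 22.2% of all genes. The widest gap in TPM was that of CR31451 (FBgn0051451, 3R, 23983503 to 23985065), 148 bases from CG13603 on the other strand. CR31451 had 1.37, 2.23, 2.64 and 4.72 TPM in the knockdown, against 9.36, 52.1, 52.5 and 47.1 TPM in lacZ 10 day. At 30 days it had 3.92, 32.6, 42.9 and 34.1 TPM, so library 1 was low in both lacZ groups. CG13603 averaged 6.93 ± 3.50 TPM in the knockdown and 17 ± 6.56 TPM in lacZ 10 day. CR45355 had at most 0.582 TPM in the knockdown, and 0.00102, 12.3, 13.1 and 12.1 TPM in lacZ 10 day, where library 1 was again the low one. CR42861 and CR43963 had 0.827 to 4.42 and 0.338 to 3.58 TPM in the knockdown, against 5.49 to 10.8 and 4.76 to 10.3 TPM in lacZ 10 day. CR44135 was on the other side, with 3.85 to 24.2 TPM in the knockdown, against 0.0897 to 1.80 TPM in lacZ 10 day.

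For the Zn72d knockdown, whose libraries the rule did not use, Zn72D itself had 10.6, 17.9 and 16.0 TPM in the knockdown, against 18.6, 18.1 and 16.9 TPM in the control, and only libraries 1 and 3 of the knockdown lay below the control range. Of the 89 genes, 46 passed the filter on low values, a mean of at least 1 TPM over the 6 libraries. CR45635, CR43973 and CR40469 rose and CR45915 fell. These are 3 higher and 1 lower of 46, where 0.885% of 8478 genes were called higher and 1.24% lower. CR43973 and CR40469 averaged under 1 TPM in the control and passed the filter only through the knockdown, as did 3 others of the 46, so nothing is read from counts or medians over the 46. The median log2 fold change of the 46 was -0.24, beside -0.17 for all genes. Of the 46, 17 had groups that did not overlap, where the share was 28.4% for all genes. After median-ratio scaling, which brings the median of all genes to -0.01, 5 were called higher and 0 lower (limma; 16 had an unadjusted p under 0.05), where 1.36% of all genes were called higher and 1.28% lower. That is 115 genes higher and 108 lower, in place of 75 and 105, and 2 of 46 signs turned, neither that of a called gene.

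CR43973 (FBgn0264704, 3L, 15098534 to 15099502) lies inside Ctps, the CTP synthase gene, on the other strand without shared exon sequence. It had 3.08, 4.33 and 3.72 TPM in the Zn72d knockdown, against 0.680, 0.541 and 1.07 TPM in the control (1.42 ± 0.21, adjusted p = 0.0129). In the midgut it was far higher, at 83.6 ± 28.3 TPM in the Adar knockdown, 81.2 ± 2.60 TPM in lacZ 30 day and 134 ± 106 TPM in lacZ 10 day, with no call. CR40469 (FBgn0058469, X, 122493 to 122706) had 2.41, 1.90 and 2.47 TPM in the Zn72d knockdown, against 0.519, 0.509 and 0.464 TPM in the control (1.12 ± 0.19, adjusted p = 0.0225). CR45635 (FBgn0267195, 3R, 15697274 to 15697874), 132 bases from CG5399, had 8.53, 22.2 and 6.36 TPM in the knockdown, against 2.51, 1.02 and 1.51 TPM in the control (2.17 ± 0.41, adjusted p = 0.0382). CG5399 averaged 2692 ± 331 TPM in the knockdown and 2779 ± 259 TPM in the control (adjusted p = 0.857).

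CR45915 (FBgn0267575, 3R, 6810819 to 6811246), which lies within the span of CR42651 on the other strand, had 4.03, 3.21 and 3.78 TPM in the knockdown, against 7.12, 7.11 and 7.78 TPM in the control. Its log2 fold change was -0.84 ± 0.18, with no overlap between the groups, and it was only just called (adjusted p = 0.0496). None of these calls held with every library left out. CR43973 was lost without libraries 1 or 2 of the control or 2 of the knockdown, CR40469 and CR45915 without any control library or library 2 of the knockdown, and CR45635 without any control library or libraries 1 or 2 of the knockdown (adjusted p = 0.0549 to 0.19). After median-ratio scaling CR43973 and CR40469 stayed called (adjusted p = 0.00642 and 0.0167), and CR45635 and CR45915 did not (adjusted p = 0.0522 and 0.0842). Since CR43973 and CR40469 passed the filter only through the knockdown, where they are high, nothing is read from their calls.

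Genes that missed the call in the Zn72d knockdown had large values too. CR45570 had 256, 146 and 147 TPM in the knockdown, against 53.6, 61.3 and 102 TPM in the control (1.33 ± 0.29, adjusted p = 0.0572), and was called without library 3 of the knockdown (adjusted p = 0.0461). CR44138 had 24.6, 52.8 and 51.1 TPM in the knockdown, against 20.6, 12.9 and 19.8 TPM in the control (1.18 ± 0.31, adjusted p = 0.105), and was called with the scaled values (adjusted p = 0.0318) and without library 1 of the knockdown (adjusted p = 0.00911). CR42839 had 5.61, 3.92 and 9.73 TPM in the knockdown, against 12.1, 17.3 and 16.2 TPM in the control (-1.19 ± 0.29, adjusted p = 0.0824), and was called without library 3 of the knockdown (adjusted p = 0.0165). Its neighbour srp was called lower, at 1.83 ± 1.26 TPM in the knockdown and 7.91 ± 2.85 TPM in the control (-1.69 ± 0.34, adjusted p = 0.0411). CR44135 averaged 7.71 ± 4.65 TPM in the knockdown and 2.56 ± 1.10 TPM in the control, and of the libraries left out in turn only the absence of library 3 of the knockdown gave a call (log2 fold change 1.60, adjusted p = 0.0358 by limma). The same held for CR45102, which averaged 16.1 ± 13.8 TPM in the knockdown and 21.2 ± 4.85 TPM in the control (log2 fold change -1.26 without that library, adjusted p = 0.0284 by limma). Both were named after their values were seen. The shares of all genes called with single libraries left out are not given here, so nothing is read from the calls made that way.

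**Figure D5:**
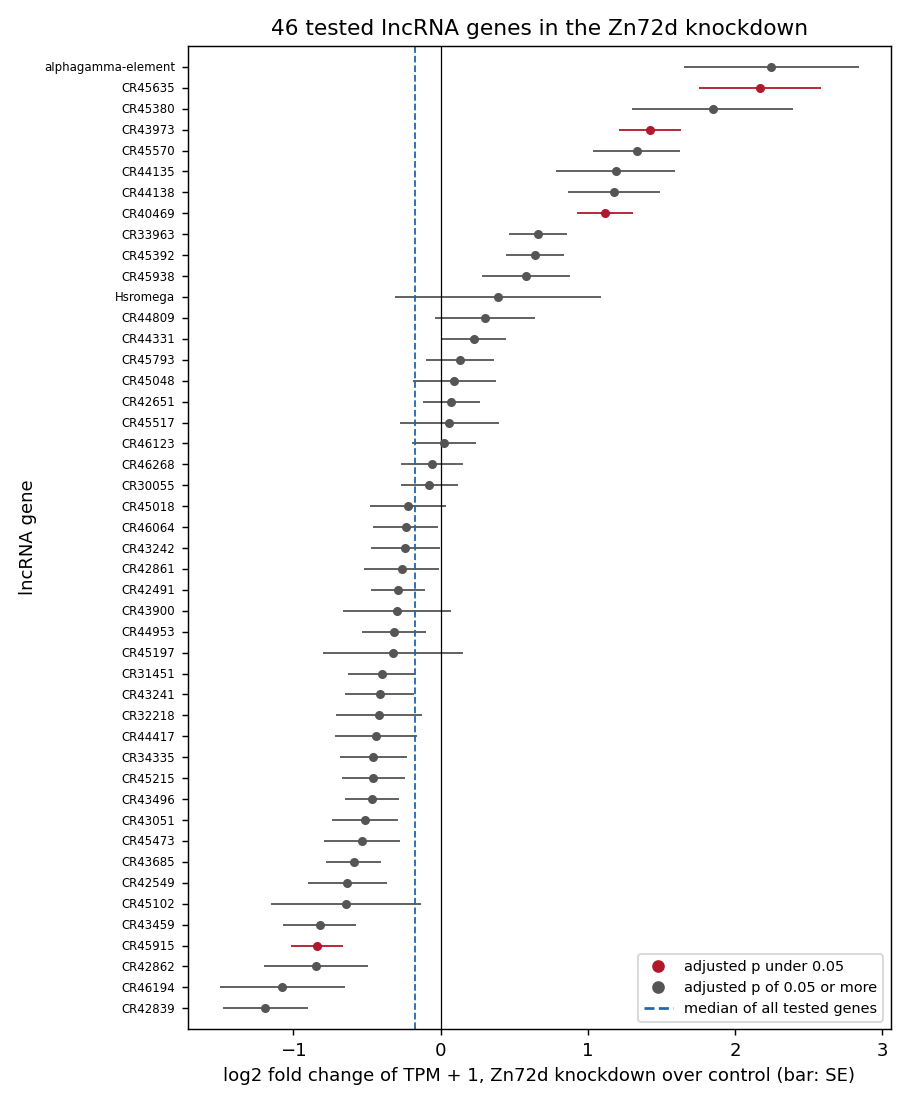
log2 fold change of TPM + 1 (horizontal axis, bar: standard error) of the 46 lncRNA genes tested in the Zn72d knockdown over its control, 3 libraries each, sorted by value. Red points are the 4 genes called at an adjusted p under 0.05, and the dashed line is the median of all 8478 tested genes, at -0.17.

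For E374A, libraries labelled overexpression were set against those labelled control, with the Adar level against the label as given above and with libraries that are not independent of the Zn72d control. Of 81 genes that passed the filter, limma called 0 higher and 0 lower, while 4 had an unadjusted p under 0.05, and without a variance trend and robust estimate the counts were also 0 and 0. The background was 0.286% called higher and 0.0343% lower of 8736 genes. Groups did not overlap for 13 of the 81, and for 23.6% of all genes. Of the 81, 38 averaged under 1 TPM in the libraries labelled overexpression and passed only through those labelled control. Nothing is therefore read from counts or medians over the 81. The median log2 fold change of the 81 was -0.81, beside -0.36 for all genes, and without E374A control 3 the median turned to 0.09 over 45 genes, beside -0.15. E374A control 3 stood apart: CR43900, for example, had 528 TPM there and at most 3.37 TPM in the 5 others.

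Without E374A control 3, 45 of the 89 genes passed the filter, and 0 were called higher and 1 lower, where 2.67% of all genes were called higher and 1.19% lower. A total of 14 of the 45 had an unadjusted p under 0.05. CR42651 (FBgn0261503, 3R, 6808796 to 6816379) fell: it had 3, 2.65 and 2.46 TPM in the libraries labelled E374A overexpression, against 7.62 and 8.58 TPM in E374A control 1 and 2 (-1.30 ± 0.25, adjusted p = 0.0241). E374A control 3 had 2.31 TPM. Its overlapping partner CR45915 had 7.05, 7.05 and 7.72 TPM in the libraries labelled overexpression, against 3.75, 5.61 and 6.36 TPM in those labelled control, with no call. CR42839 had 12.1, 17.2 and 16.1 TPM in the libraries labelled overexpression, against 3.11 and 7.92 TPM in control 1 and 2 (1.40 ± 0.35, adjusted p = 0.0687), and was called with median-ratio scaling (adjusted p = 0.0239). That scaling gave 5 higher and 1 lower without control 3, where 4.36% of all genes were called higher and 1.69% lower. CR45570 had 53.1, 60.8 and 101 TPM in the libraries labelled overexpression, against 259 and 102 TPM in control 1 and 2, with no call (-1.23 ± 0.47, adjusted p = 0.266).

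At the edge of the rule, CR43126, CR44899 and CR45570 lay just inside with highest group means of 5.07, 5.15 and 5.20 TPM. CR45975, CR45805 and CR33948 lay just outside with 4.95, 4.95 and 4.92 TPM. Among lncRNA genes at 5 TPM or more in a group, the median coefficient of variation between libraries was 39.4% in the Adar knockdown (65 genes), 39.2% in lacZ 30 day (78 genes) and 37.1% in lacZ 10 day (71 genes). All genes at 5 TPM or more had 27.4%, 20.4% and 26.6% in the same groups. In the Zn72d knockdown (25 genes) and control (24 genes) it was 36.9% and 12.3%, beside 20.8% and 10.4% for all genes. The lncRNA genes and all genes were not matched in level above that threshold, so their spread at equal level was not compared. Over all 89 genes, many of them lower in level, it was 45.5%, 41.8% and 39.9% in the 3 midgut groups.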

How the data were processed

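The deposited files are 1 StringTie gene table per library, with TPM, FPKM and read coverage per gene. Per the submitters' processing notes, the authors aligned reads with STAR 2.7.1a to dm6 and used StringTie, with its version and strand setting not given in the sources used here. The labels describe total RNA and 150 bp paired-end sequencing. In 11 tables the authors' TPM sums to 1000000. In 13 tables of assembled loci the deposited TPM, recorded as a signal because its sum is higher, was used as it stands. There the annotated genes summed to 881199 to 955176 in the Adar knockdown, 935996 to 950892 in lacZ 30 day and 963356 to 984051 in lacZ 10 day. The main fits did not correct for this difference between groups, and its part in the lower values of all genes was not tested. The deposited FPKM values were not used, and the deposited coverage served only to estimate depth and to find shared reads. No counts are in the tables, so no counting intervals are given.

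The main test was limma 3.58.1 (R 4.3.3, trend and robust) on log2(TPM + 1), for genes with a mean of at least 1 TPM over the fit, with Benjamini-Hochberg adjustment over all tested genes and a threshold of 0.05. Every fold change is therefore one of TPM + 1, so that genes of low level appear to change less than they did. The midgut groups shared 1 fit, and the Zn72d and E374A sets had 1 each. The code was tested on simulated data with planted changes of a fixed, large size and a capped spread. That test does not show how reliable the calls here are. Median-ratio scaling, other pseudocounts and filters, fewer groups, a replicate block and leaving out libraries were alternatives. Overlaps came from an Ensembl annotation of the BDGP6 assembly, in which 99.9% of symbols shared with the tables had the same coordinates. Of the 89 genes, 86 had an lncRNA row in the annotated tables and 3 a newer name, 2 of them now annotated as coding and 1 as a pseudogene.

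The members and lists were chosen with earlier results of these data known. Named genes are those with a proper name, the most abundant, the called ones, those nearest the threshold, their coding neighbours and called list members. Others are named as chosen after their values were seen. Sequences are not used here.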

Additional observations from a re-analysis of the deposited data

Results flagged for a closer look

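In groups of 4 libraries, 75 sets of values were examined for 1 library far from the other 3 by Dixon's ratio of gap to range, and 6 were found. Chance alone flags about 1 in 20 such groups. Hsromega had 141 TPM in lacZ 10 day library 2, where the other 3 had 258 to 290 TPM. CR43900 had 354 TPM in lacZ 30 day library 3, where the others had 254 to 266 TPM. CR46123 had 159 TPM in Adar knockdown library 3, where the others had 105 to 113 TPM. CR45184 had 232 TPM in lacZ 10 day library 1, where the others had 171 to 177 TPM. CR45915 was low in 2 libraries: it had 1.38 TPM in Adar knockdown library 1, where the others had 5.42 to 6.65 TPM, and 4.09 TPM in lacZ 10 day library 2, where the others had 11.7 to 12.9 TPM.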

How the results depend on the processing

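Counts of called lncRNA genes are small, so single calls move them. With age, 3 were called higher and 3 lower. Median-ratio scaling gave 5 and 1, and no filter on low values gave 1 higher. In the Adar knockdown, 3 were called higher and 4 lower. No filter gave 0 and 1, a fit of only the 2 groups 1 and 2, rescaling annotated genes to 1000000 gave 2 lower, and median-ratio scaling 0 lower. In the Zn72d knockdown, 3 were called higher and 1 lower. A filter at 5 TPM gave 1 and 0, median-ratio scaling 5 and 0, and no filter or a pseudocount of 0.1 gave 0 lower. Leaving out 1 library at a time gave 1 to 5 higher and 1 to 6 lower with age, 0 to 4 higher and 1 to 7 lower in the Adar knockdown, 0 to 6 higher and 0 to 3 lower in the Zn72d knockdown, and 0 to 0 higher and 0 to 1 lower for E374A. Of alternatives chosen after seeing the data, leaving out library 1 of both lacZ groups gave 5 higher and 4 lower with age and 7 and 9 in the Adar knockdown. The shares of all genes called without these libraries are not given here, so nothing is read from those counts. Median-ratio scaling without E374A control 3 gave 5 and 1 for E374A. Same-numbered libraries were not treated as paired, since in no comparison did every pair's deviations correlate above 0.1, although 3 of 4 pairs did for age. The correlations were -0.08 to 0.23 for age, -0.30 to 0.22 for the Adar knockdown, -0.07 to 0.05 for Zn72d and -0.01 to 0.17 for E374A, and 5 of 8, 1 of 8, 1 of 6 and 4 of 6 libraries were closest to their own number. With a replicate block, 3 were called higher and 2 lower with age, 1 and 3 in the Adar knockdown, 7 and 2 in the Zn72d knockdown, and 0 and 0 for E374A. No named gene changed sign past the threshold: over all alternatives, 1175 values kept their side of it, 109 lost a call and 23 gained one. The 1175 include genes not called in the main fit that stayed uncalled, among them those of E374A, which had 0 calls there. They therefore do not show how stable the calls are. The causes of these changes were not tested.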
